A study of Mus musculus with 8 samples.

Results

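The Hox genes measured here are the 39 genes of the mouse Hoxa, Hoxb, Hoxc and Hoxd clusters, 11, 10, 9 and 9 genes, of 34821 gene names on the array. They were taken by name: a probe belonged to the family if its gene name was Hoxa, Hoxb, Hoxc or Hoxd followed by a number. The family itself was chosen with earlier results of these data known. Each gene was represented by its probe that was brightest in the nerve channel over all 8 arrays. Sciatic nerve RNA was taken from 8 male mice, all at an age of 60 days, 4 of them wild-type and 4 of them SOD1G93A transgenic, a model of amyotrophic lateral sclerosis that the series title places before symptoms at this age. The labels give neither the promoter of the transgene nor the strain, and the design text calls the 4 samples of a group biological replicates. Each nerve sample carried the dye Cy3 and was hybridised against 1 common pool of RNA from neonatal heart, liver and kidney, in which wild-type and SOD1G93A RNA were mixed and which carried Cy5. The values below are log2 ratios of nerve over that pool, so a value of 1 is 2-fold more signal in nerve.

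Hox genes encode homeodomain transcription factors that give cells of the embryo their position along the head to tail axis. Within each cluster they lie in the order of their paralog numbers, from group 1, expressed toward the head, to group 13, expressed toward the tail, and genes of the same number in different clusters descend from 1 ancestral gene. In the nervous system they are known for setting the columns and muscle targets of spinal motor neurons, and in mesoderm for patterning the skeleton and connective tissue. Adult fibroblasts of different body sites are known to keep part of this pattern. The cell bodies of motor and sensory neurons lie outside the sciatic nerve, so that RNA of the nerve comes largely from Schwann cells, fibroblasts, perineurial cells, vessels and immune cells.

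Whole-array measures bear on how firmly single values can be read. On each array, nerve signal stood clearly over background at 35.5% to 41.7% of 59305 spots other than controls, and 0 spots were saturated. The 12 Schwann cell markers were all measured in nerve, that is, well above background on at least 4 arrays, as were all 10 fibroblast and 7 perineurium markers, whereas 0 of 6 motor neuron markers were, among them Chat and Mnx1. The mouse Sod1 probe gave -0.11 to 0.35 in wild-type and -0.17 to 0.03 in SOD1G93A nerves, with a difference of -0.17 ± 0.11 (SE; limma, adjusted p = 0.593); whether it also binds the human transgene is not known here, so it does not check the labels. The arrays of replicate 1 stood apart, at -33.7 for wild-type and 30.3 for SOD1G93A on the first principal component, with the other 6 between -14.6 and 10.8. Results are therefore given also on the 6 arrays numbered 2 to 4 where these differ. All 8 arrays lay on 1 slide, and the row on the slide cannot be told apart from genotype. In whole nerve, fewer cells of a type and less RNA per cell cannot be told apart.

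The probes are shown because the measured Hox signal is what these letters bound. Each has 60 bases, of which the first 30 are printed 5′ to 3′. Capitals mark the longest stretch within those 30 that a probe for another gene on the array also holds. The probes of the 4 Hoxc genes called higher in nerve come first, then 4 probes of genes with low ratios.
Hoxc4: ataaagaattTTAGTGTTGATGtgaaatgc
Hoxc6: cctcctgtatAAATCCGACCTCTggatccg
Hoxc9: tgcaaactcttgcGATGTGGGAGGGttaag
Hoxc11: ctgaacctgacagaccgACAAGTGAAAATt
Hoxa3: gctagatttgttTTGAGAGTTTTACAttcc
Hoxa5: gtgtaattaaTGCTGTTGTAGAggtgactt
Hoxb5: taggccccacaaggccTAGTCTGGAAGCgt
Hoxa11: tgaATGTATGCTTCATacagggatggtgtt
On build mm9 the probes lie on chromosome 15 for Hoxc (Hoxc6 at chr15:102842243-102842302), on chromosome 6 for Hoxa (Hoxa5 at chr6:52152049-52152108), on chromosome 11 for Hoxb (Hoxb5 at chr11:96167130-96167189) and on chromosome 2 for Hoxd (Hoxd9 at chr2:74537676-74537735). No annotation of that build was used, so exons are not given. The probe accession of all 39 genes matched a RefSeq transcript. Over all 60 bases, the longest stretch shared with a probe for another gene was 12 to 20 bases.

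Nerve RNA gave a signal well above background on at least 4 of 8 arrays for 18 of the 39 Hox genes, against 44% of all gene names by the same rule. The 12 genes above background on all 8 arrays were Hoxa7 and Hoxa10, Hoxb2, Hoxb4, Hoxb6 and Hoxb7, Hoxc4, Hoxc5, Hoxc6, Hoxc9 and Hoxc11, and Hoxd8. Hoxa3 and Hoxc10 reached this level on 7 arrays, Hoxd9 on 6, and Hoxa9, Hoxb9 and Hoxd4 on 4. By cluster these were 4 of 11 Hoxa, 5 of 10 Hoxb, 6 of 9 Hoxc and 3 of 9 Hoxd genes, so Hoxc was the cluster with the largest share measured in nerve.

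Another 14 genes were above background in nerve on no array. They were Hoxa2, Hoxa4, Hoxa11 and Hoxa13, Hoxb1 and Hoxb13, Hoxc8, Hoxc12 and Hoxc13, and Hoxd1, Hoxd3, Hoxd10, Hoxd11 and Hoxd13. All 4 genes of paralog group 13 were among them, a group known for its part in digits, hair and the urogenital tract. Hoxc8, a gene of the trunk and brachial level, was the gap in the otherwise measured run from Hoxc4 to Hoxc11, and the reference did not show it either. Hoxb3 was above background in nerve on 2 arrays, and Hoxa5, Hoxa6, Hoxb5, Hoxb8 and Hoxd12 on 1. A signal below background on this array is no evidence that a transcript is absent.

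**Figure D1:**
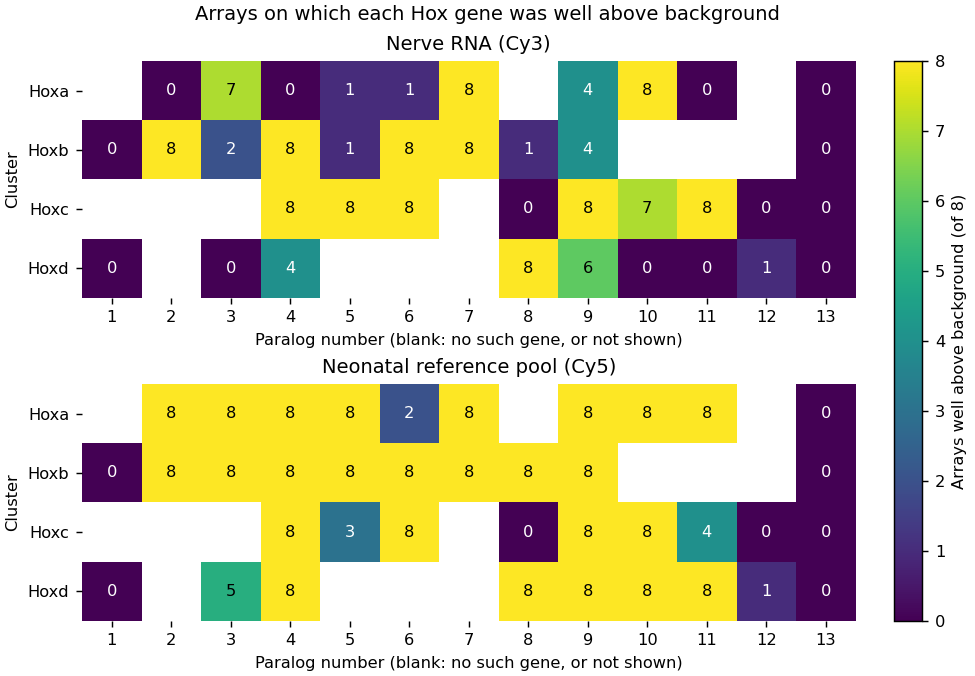
Number of arrays, of 8, on which Hox genes were well above background, by cluster (rows) and paralog number (columns), for nerve RNA in Cy3 (upper grid) and the neonatal pool in Cy5 (lower grid); blank cells have no gene or are not shown. Nerve shows 6 of 9 Hoxc genes on at least 7 arrays and none of the group 13 genes, and the pool shows Hoxc5 on 3 arrays where nerve shows it on 8.

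The reference pool showed more of the family than nerve did. In Cy5, 28 of 39 Hox genes were well above background on at least 4 arrays, against 56.6% of all gene names, and 26 of these were so on all 8. On 0 arrays did the pool show Hoxa13, Hoxb1, Hoxb13, Hoxc8, Hoxc12, Hoxc13, Hoxd1 or Hoxd13. Measured in the pool and not in nerve were 11 genes, among them Hoxa2, Hoxa5, Hoxa11, Hoxb5, Hoxb8 and Hoxd10. Hoxc5 stood the other way, on 8 arrays in nerve and 3 in the pool, and Hoxc11 was on 8 in nerve and 4 in the pool. The 10 genes measured in neither were the 8 above with Hoxa6 and Hoxd12.

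The second question was which Hox genes nerve held at more or less than the neonatal pool. A ratio could be fitted for the 29 genes measured in either channel, and it was called at a limma adjusted p under 0.05 with a size of at least 1 on the log2 scale. Hoxc6, Hoxc4, Hoxc11 and Hoxc9 were called higher in nerve, 4 of 29 against 10.5% of the 20223 genes in the fit. Called lower were Hoxa2, Hoxa3, Hoxa5, Hoxa11, Hoxb2, Hoxb5, Hoxb6, Hoxb7 and Hoxd10, 9 of 29, again against 10.5% of all genes. Genes that entered through the pool alone tend to be lower in nerve by that choice, and Hoxc5, which entered through nerve alone, tends to be higher, so these counts describe the genes and are no test of the family. With Agilent processed signals, to which no offset is added, the 13 called genes lay further from 0, at 3.42 for Hoxc6, 3.30 for Hoxc11, 1.91 for Hoxc4 and 1.60 for Hoxc9, and at -1.26 (Hoxb7) to -4.51 (Hoxa5) for the 9 lower ones, so the sizes below hold for the offset of 50. Adult nerve was compared here with neonatal organs, so tissue and age cannot be told apart, and with no dye swap neither can a dye effect of a probe. The pool had no replicate.

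By cluster, the ratios can be set side by side for the 17 genes measured in both channels, where entry does not favour a sign. All 5 such Hoxc genes had a positive mean ratio, with a median of 1.23, as had 3 of 4 Hoxa genes, with a median of 0.12. The 5 Hoxb and 3 Hoxd genes were all negative, with medians of -1.01 and -0.48. These are descriptions of few genes, and over all genes in the fit the median was -0.08.

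**Figure D2:**
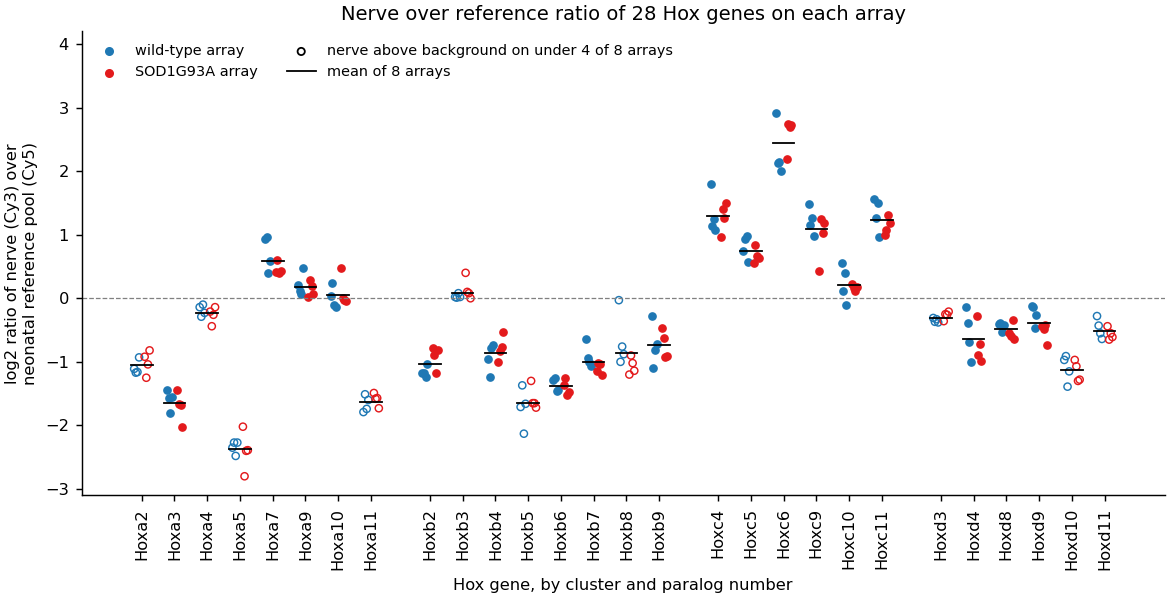
Log2 ratio of nerve over the neonatal pool for 28 Hox genes with a fitted ratio, by cluster and paralog number; each point is 1 array (blue wild-type, red SOD1G93A), open where nerve was above background on under 4 of 8 arrays, and lines are means of 8 arrays. Hoxc6 lies highest at 2.00 to 2.92, Hoxa5 lowest at -2.80 to -2.02, and points of the genotypes overlap for each gene.

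Hoxc6, a gene known from the limb-level motor column and from trunk mesoderm, had the highest ratio of the family. Its log2 ratios were 2.92, 2.13, 2.14 and 2.00 in wild-type replicates 1 to 4 and 2.19, 2.74, 2.69 and 2.73 in SOD1G93A replicates 1 to 4. Every array was above 0, wild-type replicate 1 stood above its group, SOD1G93A replicate 1 stood below its own, and the groups overlapped through these arrays. The mean was 2.44 ± 0.10 (SE), or 5.44-fold more signal in nerve (limma, adjusted p = 4.39e-09). It was 2.41 on the 6 arrays numbered 2 to 4.

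Hoxc4 is the member of the cluster with the lowest number. It gave 1.79, 1.14, 1.24 and 1.08 in wild-type and 0.96, 1.40, 1.27 and 1.50 in SOD1G93A nerves, with wild-type replicate 1 highest and overlapping groups. Its mean of 1.30 ± 0.09 (SE) is 2.46-fold (limma, adjusted p = 1.55e-07).

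Hoxc9, which in the spinal cord specifies thoracic motor columns, gave 1.49, 1.15, 1.27 and 0.98 in wild-type nerves. In SOD1G93A nerves it gave 0.43, 1.24, 1.02 and 1.18, of which replicate 1 was the lowest of all arrays. The mean was 1.09 ± 0.09 (SE), 2.14-fold (limma, adjusted p = 9.66e-07). Hoxc11, a gene of the hindlimb and lumbosacral level, gave 1.56, 1.26, 1.50 and 0.97 in wild-type and 1.00, 1.08, 1.31 and 1.18 in SOD1G93A nerves. Both groups covered much the same range. Its mean was 1.23 ± 0.07 (SE), 2.35-fold (limma, adjusted p = 3.7e-08), with the pool above background on 4 of 8 arrays. With processed signals it was 3.30, above Hoxc4 and Hoxc9, so the order of these genes behind Hoxc6 depends on the setting.

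Hoxc5 and Hoxa7 were higher in nerve on every array without reaching a size of 1. Hoxc5 gave 0.74, 0.94, 0.98 and 0.57 in wild-type and 0.55, 0.84, 0.67 and 0.64 in SOD1G93A nerves, with a mean of 0.74 ± 0.06 (SE; limma, adjusted p = 4.71e-07). The genotypes overlapped. The pool was above background on 3 of 8 arrays, and with processed signals the ratio was 2.62, past the size for a call. Hoxa7, a gene of the trunk, was the Hoxa gene with the highest ratio, at 0.93, 0.96, 0.40 and 0.58 in wild-type and 0.42, 0.60, 0.39 and 0.43 in SOD1G93A nerves. Wild-type replicates 1 and 2 were the 2 highest arrays. Its mean was 0.59 ± 0.07 (SE; limma, adjusted p = 1.15e-05).

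Hoxc10, known from the hindlimb level, lay nearer to 0 than the other fitted Hoxc genes, Hoxc9 and Hoxc11 on either side included. It gave -0.10 to 0.55 in wild-type and 0.12 to 0.22 in SOD1G93A nerves, with a mean of 0.21 ± 0.07 (SE; limma, adjusted p = 0.0157), and it was 0.14 with an adjusted p of 0.058 on the 6 arrays numbered 2 to 4. Hoxa9, a regulator of blood progenitors, had a mean of 0.18 over a range of 0.02 to 0.47. Hoxa10 had a mean of 0.05 over -0.14 to 0.47, without a settled sign, since it was -0.01 on the 6 arrays numbered 2 to 4.

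At the other end, Hoxa5, which is required for lung and trunk patterning, was the gene furthest below the pool. Its ratios were -2.35, -2.27, -2.48 and -2.27 in wild-type and -2.02, -2.80, -2.40 and -2.39 in SOD1G93A nerves, all far below 0, and SOD1G93A replicates 1 and 2 were the extremes. The mean was -2.37 ± 0.07 (SE; limma, adjusted p = 4.33e-10). Nerve was above background on 1 of 8 arrays, so the size is a bound, at least 4.32-fold lower in nerve. Such a bound sets the mean of the pool against the lowest nerve signal that passed as well above background on each array, or the probe's own where that was higher.

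Hoxb5, the paralog of Hoxa5 in the Hoxb cluster and a gene of enteric neural crest, was also low. It gave -1.71, -1.37, -2.13 and -1.66 in wild-type and -1.30, -1.65, -1.65 and -1.72 in SOD1G93A nerves, with overlap. With a mean of -1.65 ± 0.08 (SE; limma, adjusted p = 1.32e-08) and nerve above background on 1 array, it was at least 2.84-fold lower in nerve. Hoxa11, required with its group 11 paralogs for the kidney and the forearm, gave -1.79, -1.51, -1.74 and -1.60 in wild-type and -1.49, -1.58, -1.57 and -1.73 in SOD1G93A nerves. All 8 values lay close together, at a mean of -1.63 ± 0.05 (SE; limma, adjusted p = 2.38e-10). Nerve was on no array above background, which makes it at least 2.48-fold lower in nerve.

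Hoxa3, needed for thymus and parathyroid, was low in nerve and yet measured there on 7 arrays. Its ratios were -1.45, -1.57, -1.81 and -1.55 in wild-type and -1.44, -1.66, -1.68 and -2.02 in SOD1G93A nerves, with SOD1G93A replicate 4 lowest. The mean was -1.65 ± 0.06 (SE), that is 3.14-fold less signal than in the pool (limma, adjusted p = 2.7e-09). Hoxb6, expressed in posterior mesoderm, was measured in nerve on all 8 arrays, with -1.29, -1.26, -1.46 and -1.45 in wild-type and -1.37, -1.25, -1.52 and -1.47 in SOD1G93A nerves. The groups covered the same range, and the mean of -1.38 ± 0.05 (SE) is 2.61-fold less (limma, adjusted p = 7.36e-10).

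The 4 remaining genes called lower lay close to the size required. Hoxb2, a hindbrain gene, gave -1.17, -1.18, -1.24 and -1.03 in wild-type and -0.78, -0.90, -1.17 and -0.81 in SOD1G93A nerves, a mean of -1.03 ± 0.05 (SE; limma, adjusted p = 1.58e-08). Hoxb7 gave -0.64, -0.94, -1.01 and -1.06 in wild-type and -1.15, -1.02, -1.04 and -1.21 in SOD1G93A nerves, a mean of -1.01 ± 0.05 (SE; limma, adjusted p = 2.57e-08). For Hoxb2, 3 SOD1G93A arrays lay above all wild-type ones and the other among them; for Hoxb7, 2 lay below all wild-type ones and 2 among them. Both calls depended on single arrays: Hoxb7 fell short at -0.99 without wild-type replicate 3, at -0.98 without wild-type replicate 4 and at -0.99 without SOD1G93A replicate 4, and Hoxb2 at -0.99 without SOD1G93A replicate 3.

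Hoxa2, which patterns the hindbrain and the second pharyngeal arch, and Hoxd10, known from the lumbar motor column, were below background in nerve throughout. Hoxa2 gave -1.11, -1.17, -1.16 and -0.93 in wild-type and -0.92, -1.25, -1.04 and -0.82 in SOD1G93A nerves, and was at least 1.51-fold lower (mean -1.05 ± 0.05, SE; limma, adjusted p = 2.36e-08). Hoxd10 gave -0.97, -0.91, -1.39 and -1.15 in wild-type and -0.97, -1.07, -1.30 and -1.28 in SOD1G93A nerves, and was at least 1.62-fold lower (mean -1.13 ± 0.06, SE; limma, adjusted p = 3.91e-08). Neither showed a genotype that stood to 1 side.

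The other fitted genes had negative ratios smaller than 1 in size, apart from Hoxb3. Among those measured in nerve, Hoxb4, a regulator of blood stem cells, had a mean of -0.85, Hoxb9 of -0.73, Hoxd4 of -0.64, Hoxd8 of -0.48 and Hoxd9 of -0.38. Among those below background in nerve, Hoxb8 had -0.87, Hoxd11 -0.52, Hoxd3 -0.31 and Hoxa4 -0.23. Ratios of dim spots are pulled toward 0 by the offset of 50 added to each signal. With processed signals 17 Hox genes in place of 9 were called lower; 8 genes joined, among them Hoxa4 (-1.27), Hoxb4 (-1.13), Hoxb8 (-2.40), Hoxb9 (-1.71), Hoxd3 (-1.34), Hoxd4 (-1.62) and Hoxd11 (-2.22). The higher calls became 5, all of them Hoxc genes.

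Probes of 1 gene did not always give the same ratio. Of the Hox genes 33 had 1 probe only, among them every Hoxc gene, so no second probe was there to check the Hoxc ratios. The 2 Hoxb3 probes, both above background in the pool on all 8 arrays, gave means of 0.09 for the probe in use and -1.32 for the other. With the mean of both probes Hoxb3 was -0.61 (limma, adjusted p = 1.13e-07), the sign turned. The Hoxb3 probe in use shared 20 bases with a probe for Nkx1-1, the longest shared stretch of all probes in use, and the other shared 14. The Hoxd11 probes gave -0.52 for the probe in use and -1.15 for the other. For both genes the probe kept as the brightest in nerve had the higher ratio. The part of either point in the ratios was not tested. The second probes of Hoxa3, Hoxa9 and Hoxa13 were not above background in either channel on any array.

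Paralogs of 1 number could be compared where both were measured in both channels, which left 4 groups. In group 6 Hoxc6 stood 3.83 ± 0.36 (SD over 8 arrays) above Hoxb6. In group 4 Hoxc4 stood 1.84 ± 0.31 above the higher of Hoxb4 and Hoxd4, and in group 9 Hoxc9 stood 0.92 ± 0.32 above the highest of Hoxa9, Hoxb9 and Hoxd9. In these 3 groups the Hoxc gene was highest on all 8 arrays. Hoxa4, fitted through the pool alone, was left out of group 4 by this rule. With it included, Hoxc4 stood 1.52 ± 0.27 above the highest of its paralogs. In group 10 the gap of 0.15 ± 0.27 between Hoxc10 and Hoxa10 was smaller than its spread, and Hoxc10 led on 6 of 8 arrays. The gaps compare ratios and not amounts, since the pool holds each paralog at its own level, and they share the same 8 arrays. In groups 5 and 11 the fitted Hoxa, Hoxb and Hoxd paralogs were not measured in nerve, so the Hoxc genes were above them by the choice of genes and no size is given. Where nerve had to be above background on all 8 arrays, 2 groups could be compared.

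**Figure D3:**
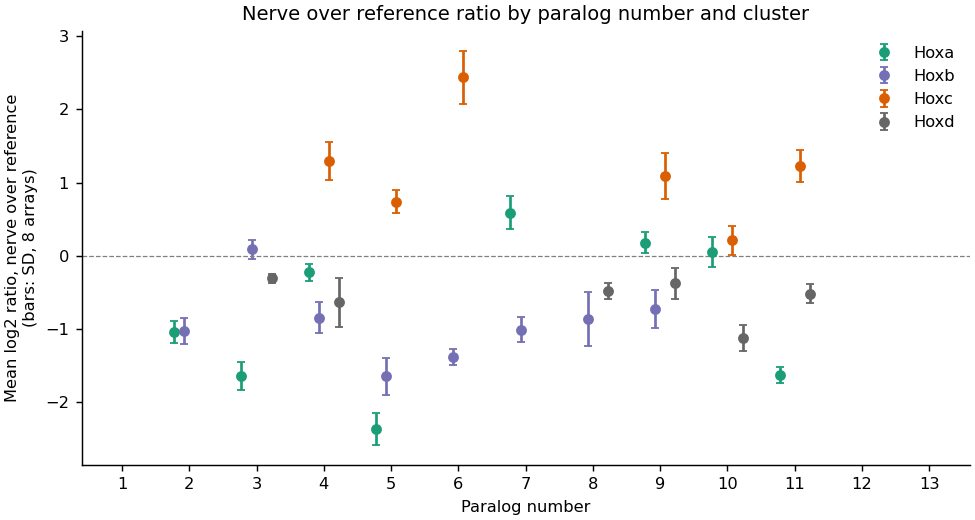
Mean log2 ratio of nerve over the neonatal pool for 28 fitted Hox genes against paralog number, coloured by cluster; bars are SD over 8 arrays. Among genes measured in both channels, Hoxc genes lie above their paralogs by 1.84 in group 4, 3.83 in group 6, 0.92 in group 9 and 0.15 in group 10.

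Paralog group 4 shows the divergence in genes with start windows in the RefSeq promoter table of GRCm38.p6: Hoxc4 was higher in nerve than in the pool, and Hoxb4 and Hoxd4 had negative means. The 250 bases before the start that the table lists are printed 5′ to 3′, with capitals marking matches to TATAAA, the TATA box, and AGGTCA, the half-site bound by retinoic acid receptors, on either strand.
Hoxb4: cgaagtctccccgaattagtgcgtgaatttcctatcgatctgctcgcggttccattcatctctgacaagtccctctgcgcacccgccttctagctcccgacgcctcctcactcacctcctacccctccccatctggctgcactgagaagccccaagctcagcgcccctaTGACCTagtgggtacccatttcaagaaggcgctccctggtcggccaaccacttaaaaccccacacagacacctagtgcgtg
Hoxc4: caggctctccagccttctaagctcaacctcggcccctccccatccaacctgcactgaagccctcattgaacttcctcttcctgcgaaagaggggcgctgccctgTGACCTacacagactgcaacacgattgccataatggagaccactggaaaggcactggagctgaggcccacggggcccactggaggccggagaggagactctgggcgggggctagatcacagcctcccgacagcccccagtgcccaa
Hoxd4: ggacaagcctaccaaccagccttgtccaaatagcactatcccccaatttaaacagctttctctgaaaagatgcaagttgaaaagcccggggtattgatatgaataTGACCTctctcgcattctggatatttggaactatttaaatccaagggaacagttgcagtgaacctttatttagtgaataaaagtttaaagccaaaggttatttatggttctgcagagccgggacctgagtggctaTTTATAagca
These windows lie on the plus strand at chr11:96318017-96318266 for Hoxb4, chr15:103034145-103034394 for Hoxc4 and chr2:74721728-74721977 for Hoxd4. Each also lies within the span of a gene in RefSeq, Hoxb3 for the Hoxb4 window, Hoxd3 for the Hoxd4 window, and Gm30528 and Hoxc4 itself for the Hoxc4 window, so the listed Hoxc4 start is not its outermost. Each holds 1 match to AGGTCA, read as TGACCT on the printed strand. One stands in 14.0% of the 32851 windows of this length, and in those of 6 of the 22 Hox genes listed there. TATAAA is found in the Hoxd4 window, read as TTTATA, and in 12.4% of all windows. Neither TGATNNAT, the joint site of Hox and Pbx proteins, nor TGACAG, the site of Meis proteins, was found in the 3, against 7.7% and 15.9% of all windows. The windows hold 14, 8 and 3 CG pairs in the order Hoxb4, Hoxc4 and Hoxd4, and the median over all windows is 6. The matches are letters in a window and do not separate Hoxc4 from its paralogs.

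The genotypes were compared for the 18 Hox genes measured in nerve on at least 4 arrays, within a fit of 15343 genes. None of the 18 was called at an adjusted p under 0.05 by limma, while 25 of all genes were, 0.163%. The groups overlapped for all 18, against 7.97% of all genes whose groups did not. At an unadjusted p under 0.05 there were 2 of 18, and 11.4% of all genes. The differences, SOD1G93A minus wild-type, ran from -0.28 to 0.29, with 4 positive, 14 negative and a median of -0.08, beside -0.02 over all genes. The 95% confidence intervals of single genes reached from -0.67 to 0.76, so these arrays do not settle differences within that range.

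Hoxd9, a gene of the lumbar level and the limb, had the smallest p. Its ratios were -0.12, -0.13, -0.46 and -0.26 in wild-type and -0.43, -0.49, -0.42 and -0.74 in SOD1G93A nerves. Wild-type replicate 3 lay among the SOD1G93A arrays. The difference was -0.28 ± 0.11 (SE; limma, adjusted p = 0.372), and nerve was above background on 4 wild-type and 2 SOD1G93A arrays. With processed signals the difference was -0.72 (limma, adjusted p = 0.2), outside the range of the intervals above. Hoxb2, whose values are given above, had a difference of 0.24 ± 0.10 (SE; limma, adjusted p = 0.417).

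For Hoxc6 the difference was 0.29 ± 0.21 (SE), the largest in the positive direction and also the least precise (limma, adjusted p = 0.629). This value rested on the arrays of replicate 1. On the 6 arrays numbered 2 to 4, the 3 wild-type values of 2.00 to 2.14 and the 3 SOD1G93A values of 2.69 to 2.74 were apart, by 0.63 (limma, adjusted p = 0.00898), and Hoxc6 was then 1 of 233 genes called. Leaving out single arrays gave differences of 0.19 to 0.49 and no call, and processed signals gave 0.49 (limma, adjusted p = 0.511). This choice of arrays was made after the values were seen.

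Marker levels of other cell types also differed between arrays. The summed Cy3 level of 10 skeletal muscle markers was 59444 and 22470 in wild-type replicates 1 and 2, 1994 and 2264 in replicates 3 and 4, and 1750 to 2194 in SOD1G93A nerves. That of 8 adipocyte markers ran from 89187 to 316370 in wild-type and from 39858 to 130162 in SOD1G93A nerves, and that of 8 pericyte and smooth muscle markers from 64545 to 128449 and from 56032 to 66310. In SOD1G93A replicate 1, 10 fibroblast markers summed to 234028, beside 329361 to 378940 in the other SOD1G93A nerves, and 8 macrophage markers to 8623, beside 14636 to 19811. Schwann cell markers summed to 308688 to 425945 in wild-type and to 353740 to 399487 in SOD1G93A nerves. Of the 29 fitted Hox genes 12 had their highest ratio in wild-type replicate 1, the nerve with the most muscle and adipocyte signal, among them 5 of the 6 Hoxc genes. SOD1G93A replicate 1 was the highest array for 7 and each other array for 1 to 3. The same count was not made over all genes, so whether it is particular to Hox genes is not known. The arrays of replicate 1 also lay at the ends of the first principal component over 15327 genes. The part of these cell types in the Hox values was not tested.

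The remaining differences did not pass the test. Hoxa7 had -0.26 ± 0.13 (SE), Hoxc9 -0.25 ± 0.18 and Hoxb7 -0.19 ± 0.11, with limma adjusted p of 0.504, 0.626 and 0.53. The Hoxc9 value turned to 0.01 on the 6 arrays numbered 2 to 4, where SOD1G93A replicate 1 with its low value was left out. The 12 others lay between -0.18 and 0.15.

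**Figure D4:**
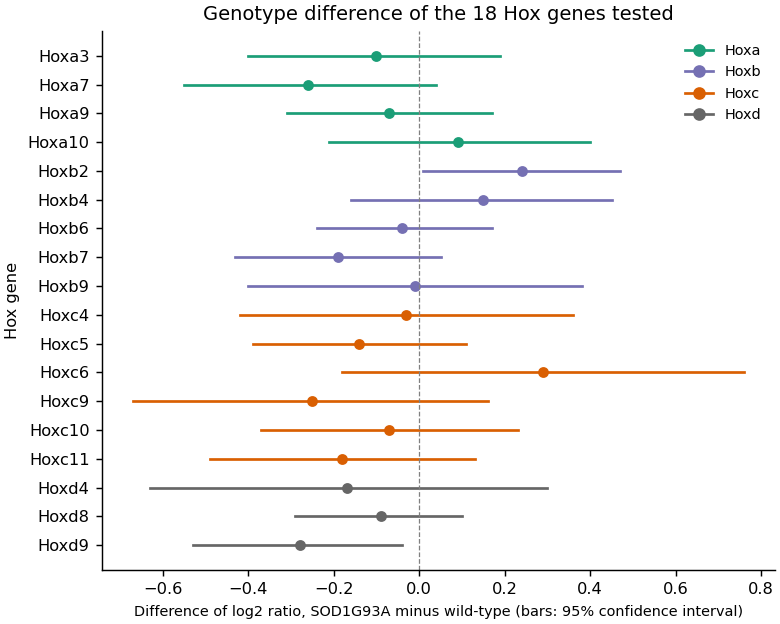
Difference of the log2 ratio, SOD1G93A minus wild-type, for the 18 Hox genes tested, coloured by cluster; points are estimates over 4 and 4 arrays and bars are 95% confidence intervals of the limma fit. Estimates run from -0.28 for Hoxd9 to 0.29 for Hoxc6, and 16 of the 18 intervals include 0.

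Hox proteins bind DNA together with TALE homeodomain cofactors of the Pbx, Meis and Pknox families. Of 10 such genes, 9 were measured in nerve. In the ratio fit 1 of 10 was called higher and 3 lower, beside 10.5% of all genes in each direction, with a median of -0.39 beside -0.08 over all genes. Meis1 was lowest at -2.25 ± 0.05 (SE), followed by Meis2 at -1.29 ± 0.06 and Pbx3 at -1.26 ± 0.04, and Meis3 was higher at 1.00 ± 0.06 (limma, adjusted p of 2.54e-11, 1.46e-08, 4.68e-10 and 7.76e-08). None of the 9 differed between genotypes by limma at an adjusted p under 0.05, the smallest adjusted p being 0.294 for Pknox1.

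Polycomb and Trithorax proteins keep Hox genes silent or active after the embryo has set their pattern. Of 21 Polycomb genes 3 were called higher and 2 lower, near the 10.5% of all genes each way, with a median of -0.22. Ezh1, a histone methyltransferase known from resting cells, was at 1.97 ± 0.04 (SE), Cbx6 at 1.52 ± 0.07, Rnf2 at -1.39 ± 0.05 and Phc3 at 1.20 ± 0.05. Of 10 fitted Trithorax and demethylase genes 0 were called higher and 1 lower, Wdr5 at -1.03 ± 0.04, and their median was 0.34.

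Retinoic acid turns on Hox genes in the embryo through its receptors. Of 15 fitted genes of the pathway 5 were called higher in nerve and 1 lower, beside 10.5% of all genes each way, with a median of 0.70. Rxrg, a receptor partner, was at 3.79 ± 0.08 (SE) and Stra6, the membrane receptor for retinol transport, at 2.61 ± 0.10. Crabp2, which carries retinoic acid, was at 1.97 ± 0.08. The synthesising enzymes did not share a direction, with Aldh1a2 at -2.49 ± 0.09, Aldh1a1 at 0.30 ± 0.14 and Aldh1a3 at 1.90 ± 0.16. Of 6 fitted upstream regulators Egr2, which in the hindbrain activates Hox genes and in the nerve drives myelination, was higher at 5.07 ± 0.07 (SE), and Gmnn, above background in nerve on 1 array, was at least 2.74-fold lower. Cdx1, Cdx2 and Cdx4, the caudal factors, were not above background in either channel.

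Limb patterning genes and the neighbours of the clusters gave a further view of position. Of 11 fitted limb genes 2 were higher and 5 lower, beside 10.5% of all genes each way, and 2 of the lower ones, Tbx4 and Hand2, entered through the pool alone. Nerve was above background on no array for these 2, which were at least 15.5-fold and 3.03-fold lower. Tbx3 was at -3.36 ± 0.09 (SE) and Tbx5 at -3.02 ± 0.06. Tbx3, Tbx5 and Hand2 also act in the heart, an organ of the pool, and the part of this in their ratios was not tested. Pitx1, a hindlimb determinant, was higher at 1.13 ± 0.09 (limma, adjusted p = 1.05e-06), whereas Tbx4, also a hindlimb gene, was lower as given above. Of 12 fitted genes beside or within the clusters, 1 was called higher, Snx10 at 1.15 ± 0.06, and 2 lower, beside 10.5% of all genes each way. Mtx2 was at -2.09 ± 0.05, and Hoxa11as, the antisense transcript of Hoxa11, was above background in nerve on 1 array and at least 2.84-fold lower. No gene of these lists was called between genotypes.

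**Figure D5:**
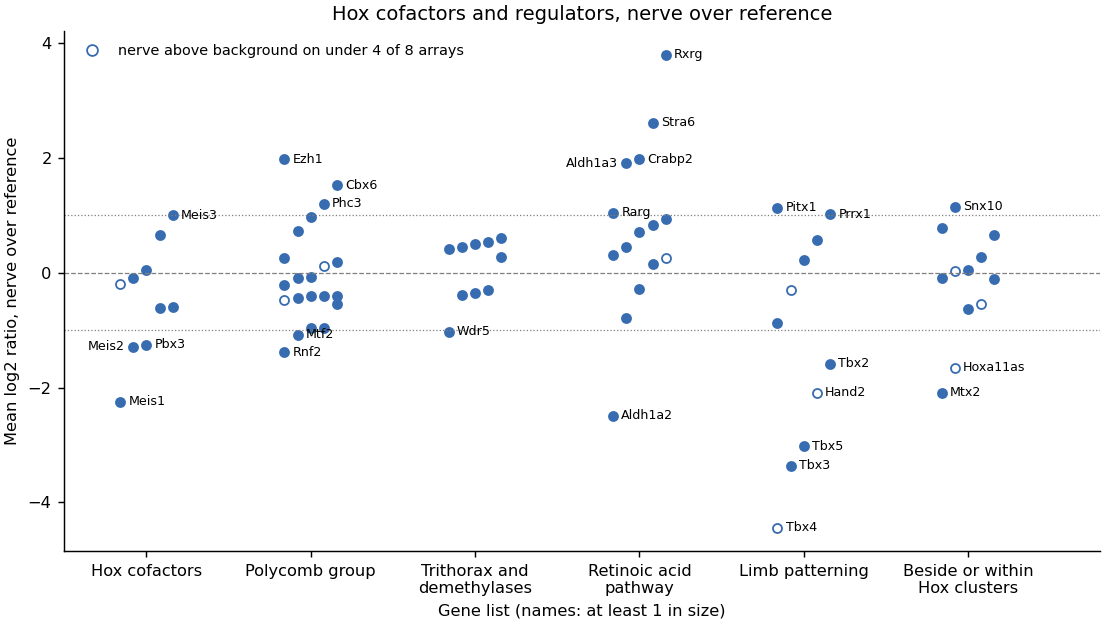
Mean log2 ratio of nerve over the neonatal pool for the fitted genes of 6 lists of Hox cofactors, regulators, limb genes and cluster neighbours; each point is 1 gene over 8 arrays, open where nerve was above background on under 4 of 8 arrays, named where the size is at least 1, with dotted lines at that size. Retinoic acid genes reach 3.79 for Rxrg, and among limb genes measured in nerve Tbx3 is lowest at -3.36.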

How the data were processed

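RNA of 8 sciatic nerves, 4 wild-type and 4 SOD1G93A, was measured on Agilent 2-colour arrays. The scanner files deposited by the authors give intensity per spot in both dyes. Their headers name Agilent Feature Extraction 11.5.1.1, whereas 11.0.1.1 stands in the submitters' processing notes, which also list limma with no role. As deposited, the series table is in log10 of Cy5 against Cy3, identical to the scanner files' own log ratio (largest difference 0), and its sign was turned. The other deposited values, such as probe names, have no scale. The members and gene lists were chosen with earlier results of these data known.

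Mean intensity was corrected with normexp (offset 50), normalized by loess within arrays with control spots at weight 0, and not scaled between arrays. Outlier spots were dropped, which removes a gene's value on that array, and spots of a probe were averaged. limma 3.58.1 in R 4.3.3, with data.table, version 1.17.8, was fitted to log2 ratios of Cy3 over Cy5 with lmFit and eBayes, 2-sided, with Benjamini-Hochberg adjustment over all genes. A probe counted as measured in a dye when 4 or more of the 8 arrays gave it as well above background. The genotype fit took genes measured in Cy3, and the ratio fit those measured in either dye, each by its brightest such probe. Summed Cy3 levels of marker lists are quantile-normalized intensity on a linear scale. The rule names all Hox genes, and full values are given for those called, those not overlapping between genotypes, and the 6 highest and 6 lowest ratios, and of other lists up to 4 genes with the largest ratios. Aldh1a1, Aldh1a3, Pitx1, Pknox1, Sod1 and the genes below background were named after their values were seen. The restriction to genes measured in both dyes was also chosen after seeing the data. Same-numbered arrays did not deviate together (r of -0.16, 0.04, -0.11 and 0.10 over 15327 genes), so no pairing was used. A member of the family is counted in the totals and not reported here. The procedure was tested on simulated data. The number of arrays limits the precision, and p-values measure the spread between these samples. Promoter windows are from RefSeq, GRCm38.p6, a build other than that of the array.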

Additional observations from a re-analysis of the deposited data

Results flagged for a closer look

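In groups of 4 arrays, 4 of the 58 groups screened for the fitted Hox genes held a log2 ratio set far apart from the other 3, and chance gives about 1 in 20. Hoxc6 did so in both genotypes, with 2.92 in wild-type replicate 1 beside 2.00 to 2.14, and with 2.19 in SOD1G93A replicate 1 beside 2.69 to 2.74. Hoxa10 was at 0.47 in SOD1G93A replicate 1, beside -0.05 to 0.01. Hoxb3 was at 0.08 in wild-type replicate 3, beside 0.01 to 0.02, a gap that is small in size. Of the 4 values 3 came from the arrays of replicate 1, which also lay at the ends of the first principal component.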

How the results depend on the processing

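Of 534 alternative values of the nerve over pool ratios 505 kept their direction and their side of the threshold, 5 fell short of it, 18 passed it and 6 turned sign. Those that turned were Hoxb3, at -0.0257 with processed signals or the series table, which hold the same values in effect, and -0.615 with the mean of probes, and Hoxa10, at -0.00492 with array weights, -0.0118 on the 6 arrays numbered 2 to 4, a choice added after seeing the data, and -0.00627 to 0.0803 with an array left out, the lowest being without SOD1G93A replicate 1. Hox genes called lower numbered 17 with processed signals or the series table, 3 when nerve had to be above background on all 8 arrays, which tests fewer genes, and 8 to 9 with an array left out. Those called higher numbered 4 or 5. Under the filter on all 8 arrays 2 paralog groups could be compared. The count of Hox genes measured in nerve was 15 to 18 with an array left out and 12 when all 8 arrays were required. The 113 alternative genotype values cover only the 6 Hox genes with the smallest p. Of these values 111 kept their direction and their call. On the 6 arrays numbered 2 to 4, Hoxc6 passed, at 0.626, and Hoxc9 turned sign without a call, to 0.0125. On those arrays 1 Hox gene and 233 genes in all were called. Genes called between genotypes were 25, but 7 with processed signals, the series table or scale normalization, 16 with no filter, 409 with array weights, and 3 to 178 with an array left out, 178 being without SOD1G93A replicate 1. With the replicate block 1 gene was called, no Hox gene among them, and 4 and 9 Hox genes remained the counts called higher and lower than the pool. The causes were not tested. Signal near background limits the ratios of the 11 genes measured in the pool alone.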
